A study of Arabidopsis thaliana with 16 samples.

Results

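The genes described here encode enzymes and specifier proteins of glucosinolate breakdown in Arabidopsis thaliana. There are 8 of them among 27444 protein-coding genes on chromosomes 1 to 5. They are the myrosinase genes TGG1, TGG2, TGG4 and TGG5, the atypical myrosinase gene PEN2, and the genes NSP1, ESP and ESM1, whose products set which compound a glucosinolate becomes. They were chosen by locus and not by their values, and every peak within 1 kb of a gene body was taken from each of 4 deposited peak lists. These windows held 20 of the 47063 peaks in all lists. The lists come from chromatin immunoprecipitation and sequencing (ChIP-seq) of guard cells. Wild type (WT) cells were set beside cells of the genotype fama-1, FAMAp:FAMA-LGK, called FAMA-LGK here, in which the fama-1 mutant carries a FAMA-LGK transgene driven by the FAMA promoter. H3K27me3, which Polycomb complexes deposit on silent genes, and H3K4me3, which is found around the starts of transcribed genes, were each profiled in both genotypes with 2 ChIP and 2 input libraries, 16 libraries in all. Guard cells were sorted by fluorescence from protoplasts of shoots at 12 days post germination, from seedlings kept at 22 °C in cycles of 16 h of light and 8 h of dark; the labels do not name the sorting marker.

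Glucosinolates are sulphur-rich glucosides of the cabbage order. They are stored apart from myrosinases, which cleave off the glucose when tissue is damaged. The unstable product rearranges to an isothiocyanate by default. Specifier proteins divert it to nitriles or epithionitriles. In Arabidopsis leaves, myrosinase is known from guard cells and from myrosin cells along the phloem. FAMA, the bHLH factor that drives guard cell differentiation, is also needed for myrosin cells to form.

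Each peak list stands for both ChIP libraries of a group and gives no value per replicate. No replicate error and no test between genotypes could therefore be had, and the depth behind the lists is unknown. The H3K4me3 lists held 16036 peaks (WT) and 15989 (FAMA-LGK), and the H3K27me3 lists 7386 and 7652. A gene was called for a mark where peaks covered at least 150 bp of its body; a covered length is the number of bp under peaks in the gene body plus 1 kb on each side. The labelled cell type was checked on marker genes. All 9 guard cell markers were called for H3K4me3 in WT and 7 in FAMA-LGK, with summed covered lengths of 22185 and 12742 bp. The H3K4me3 covered length was shorter in FAMA-LGK at all 9, and GC1 and GORK had no call there. Mesophyll markers were called too, 3 of 4 in both genotypes, with summed H3K4me3 of 4847 and 4864 bp. The 3 pavement and general epidermis markers had summed H3K4me3 of 5400 bp (WT) and 6819 bp (FAMA-LGK); ATML1 and FDH had a call in both genotypes, and PDF1, at 0 and 1388 bp, in FAMA-LGK alone. Of 2 trichome markers, 1 was called in both genotypes (1459 and 1267 bp). Both root markers were at 0 bp of H3K4me3 in both genotypes. Of 2 phloem markers, SUC2 alone was called for H3K4me3, with 1161 bp (WT) and 1923 bp (FAMA-LGK), and APL was at 0. H3K27me3 was called in both genotypes at 1 guard cell marker, ALMT12 (2094 and 2697 bp), and at no mesophyll marker. PDF1 and both trichome, phloem and root markers were also called for H3K27me3 in both genotypes. FAMA itself, shared by guard cells and myrosin cells, had 3328 bp of H3K4me3 in WT and 627 bp in FAMA-LGK, where reads of the transgene and the locus cannot be told apart. The part of cell composition in the differences below was not tested.

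The 8 genes fell into 3 kinds of chromatin state. TGG2, TGG4, TGG5, ESP and ESM1 were called for H3K27me3 without H3K4me3 in both genotypes, a state of 18.2% of all genes. PEN2 was called for H3K4me3 without H3K27me3 in both, a state of 55.7% of all genes. TGG1 and NSP1 had H3K4me3 alone in WT and were called for H3K27me3 in FAMA-LGK, with shorter or no H3K4me3 there. For H3K27me3, 5 of the 8 had a call in WT and 7 had one in FAMA-LGK, beside 24.4% of all genes in either genotype. For H3K4me3, 3 had a call in WT and 2 had one in FAMA-LGK, beside 62.2% of all genes in either. Calls of H3K27me3 limited to FAMA-LGK numbered 2 among the 8 (1.37% of all genes), and none was limited to WT (1.39%). For H3K4me3, 1 call was limited to WT, at NSP1 (2.03% of all genes), and none to FAMA-LGK (1.99%).

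**Figure D1:**
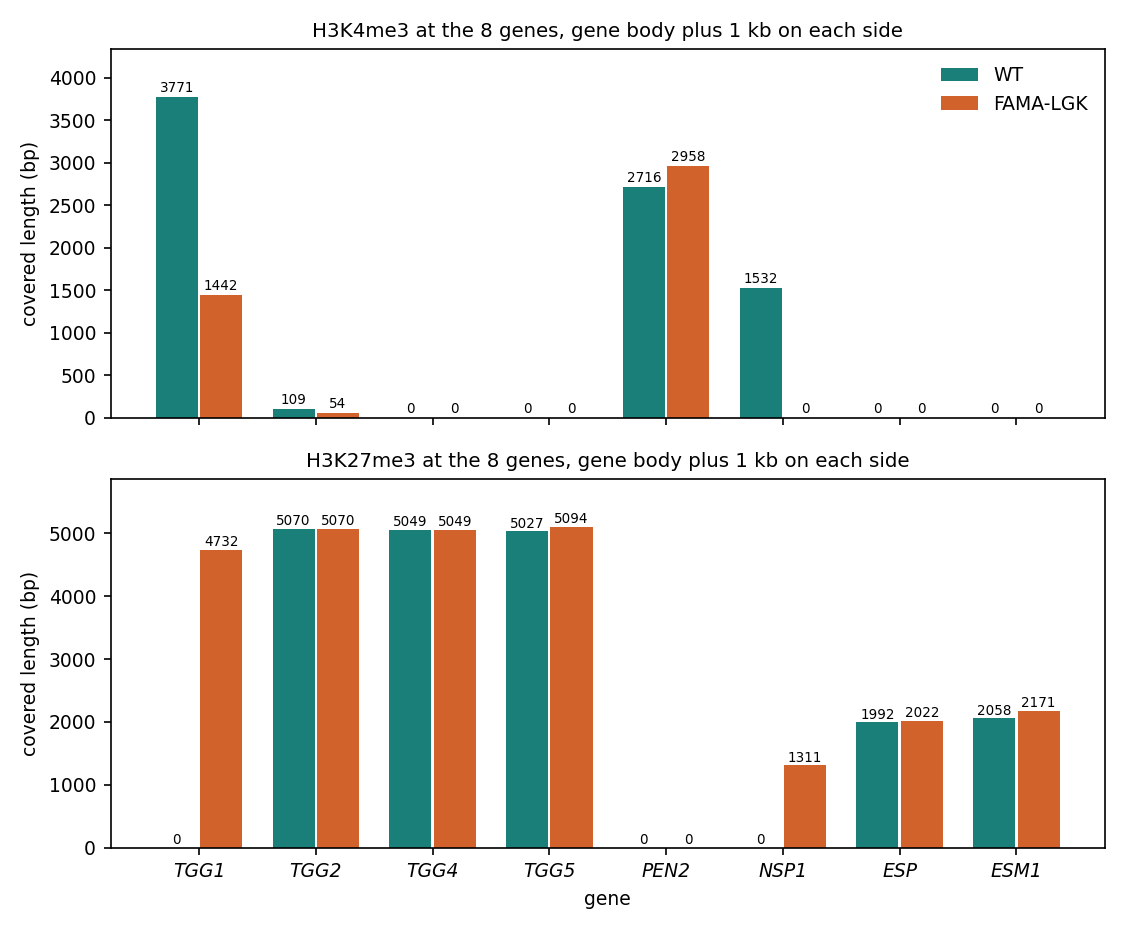
Covered length in bp (gene body plus 1 kb on each side) of H3K4me3 (upper) and H3K27me3 (lower) at the 8 genes; each bar is 1 deposited list, so there is no error bar. TGG1 has the longest H3K4me3 in WT, 3771 bp, and goes from 0 to 4732 bp of H3K27me3, while the H3K27me3 bars of TGG2, TGG4 and TGG5 stand at 5027 to 5094 bp in both genotypes.

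TGG1 (AT5G26000, chromosome 5) encodes the main myrosinase of guard cells. In WT, 1 H3K4me3 peak, chr5:9078806-9082576 (TAIR10), covered the whole 2933 bp gene body and ran 646 bp past its lower-coordinate end and 192 bp past its upper end. Its width of 3771 bp was rank 62 from the widest among 16036 peaks, where the median was 1115 bp. The authors' fold, the enrichment of ChIP over control, was 5.42 at this peak, at the 56.7 percentile of its list by −log10 q. The peak thus stood out by its width and not by its strength.

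In FAMA-LGK, the H3K4me3 peak at TGG1 was chr5:9080821-9082262, 1442 bp wide. It lay wholly within the WT peak, took up 38.2% of that peak's width and ended 314 bp short of its upper end. It was one of the weakest peaks of its list, with a fold of 1.70 and rank 107 from the lowest −log10 q among 15989 peaks. H3K4me3 still covered 49.2% of the gene body there, so TGG1 kept an H3K4me3 call. The call rests on that weak peak: when each list was cut to its 50% strongest peaks by −log10 q, or when 50% of the body was required, TGG1 was called for H3K4me3 in WT alone.

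H3K27me3 at TGG1 was listed in FAMA-LGK alone, where the peak chr5:9078549-9083280 covered the whole gene body. At 4732 bp it was at the 89.5 percentile of its list by width, and its fold was 4.10 (70.4 percentile by −log10 q). It contained all 3771 bp of the WT H3K4me3 peak and reached 257 bp beyond it on the lower side and 704 bp on the upper. In WT, the nearest H3K27me3 peaks ended 1930 bp below the gene and began 7487 bp above it. All 1442 bp of the FAMA-LGK H3K4me3 peak lay inside the H3K27me3 peak, as did 2.48% of all H3K4me3 peaks in FAMA-LGK. Whether both marks sat on the same cells' chromatin or on that of different sorted cells cannot be told apart in such pooled lists. TGG1 was the only one of the 8 genes called for both marks in a genotype, a state of 4.51% of all genes in FAMA-LGK.

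TGG2 (AT5G25980) lies beside TGG1 on chromosome 5, with 3674 bp between the gene bodies, and encodes the myrosinase known mainly from phloem myrosin cells. Unlike its neighbour, it carried H3K27me3 in both genotypes, at chr5:9070482-9077521 in WT (7040 bp) and chr5:9070473-9077574 in FAMA-LGK (7102 bp). The borders of these peaks differed by 9 bp on the lower side and 53 bp on the upper. Both were among the strong peaks of their lists, with folds of 5.60 and 6.37 at the 93.7 and 94.8 percentiles by −log10 q. The whole window of TGG2 was covered in both, so its covered length of 5070 bp could not have been longer.

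H3K4me3 was absent from the lists over the TGG2 body. Its window held only the edge of a peak of the next gene, AT5G25990, by 109 bp (WT) and 54 bp (FAMA-LGK). AT5G25990 and AT5G25995, which overlap each other between TGG2 and TGG1, were called for both marks in both genotypes. In FAMA-LGK the H3K27me3 peaks of TGG2 and TGG1 were separated by 974 bp, so they remained 2 peaks and did not form 1 domain as listed. Within this pair, the H3K27me3 of TGG1 differed between the genotypes by 4732 bp of covered length and that of TGG2 by 0 bp.

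**Figure D2:**
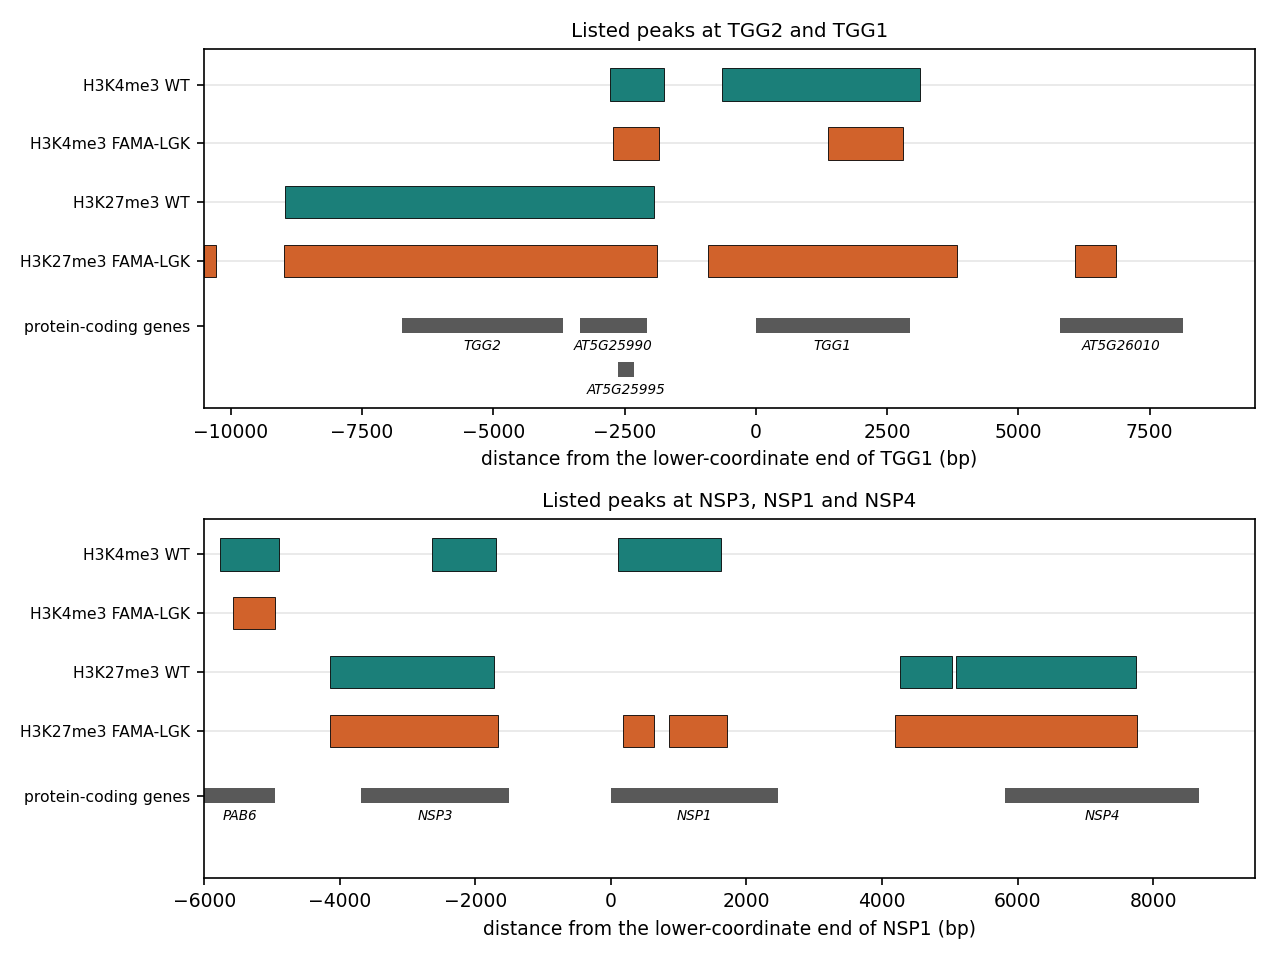
Listed peaks at TGG2 and TGG1 (upper) and at NSP3, NSP1 and NSP4 (lower), with the distance in bp from the lower-coordinate end of TGG1 or NSP1 on the x axis; each bar is a peak of 1 list, and grey bars are protein-coding genes. In WT, TGG1 and NSP1 have H3K4me3 and no H3K27me3, and in FAMA-LGK both have H3K27me3, while TGG2, NSP3 and NSP4 have H3K27me3 in both genotypes.

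TGG4 (AT1G47600) and TGG5 (AT1G51470), both on chromosome 1, encode myrosinases known from roots. Both lay under some of the widest H3K27me3 peaks of the lists. At TGG4 the peak was chr1:17490478-17502347 in WT, 11870 bp wide with a fold of 4.70. In FAMA-LGK it was chr1:17490483-17502377, 11895 bp wide with a fold of 4.83. These were ranks 82 and 83 from the widest in their lists.

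At TGG5 the peak was chr1:19086497-19096840 in WT, 10344 bp wide with a fold of 5.01. In FAMA-LGK it was chr1:19086430-19096778, 10349 bp wide with a fold of 4.71. Its borders differed by 67 and 62 bp between the genotypes, and those at TGG4 by 5 and 30 bp. The TGG4 peak also took in the purine permease gene PUP19, and the TGG5 peak AT1G51480 and part of TGG6 (AT1G51490, listed as BGLU36). No H3K4me3 peak was listed within 6473 bp of TGG4 or 7572 bp of TGG5 in either genotype. The summits of both peaks lay outside the myrosinase genes, between 6775 and 7502 bp above their lower-coordinate ends, so neither gene was called where a summit inside the body was required.

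**Figure D3:**
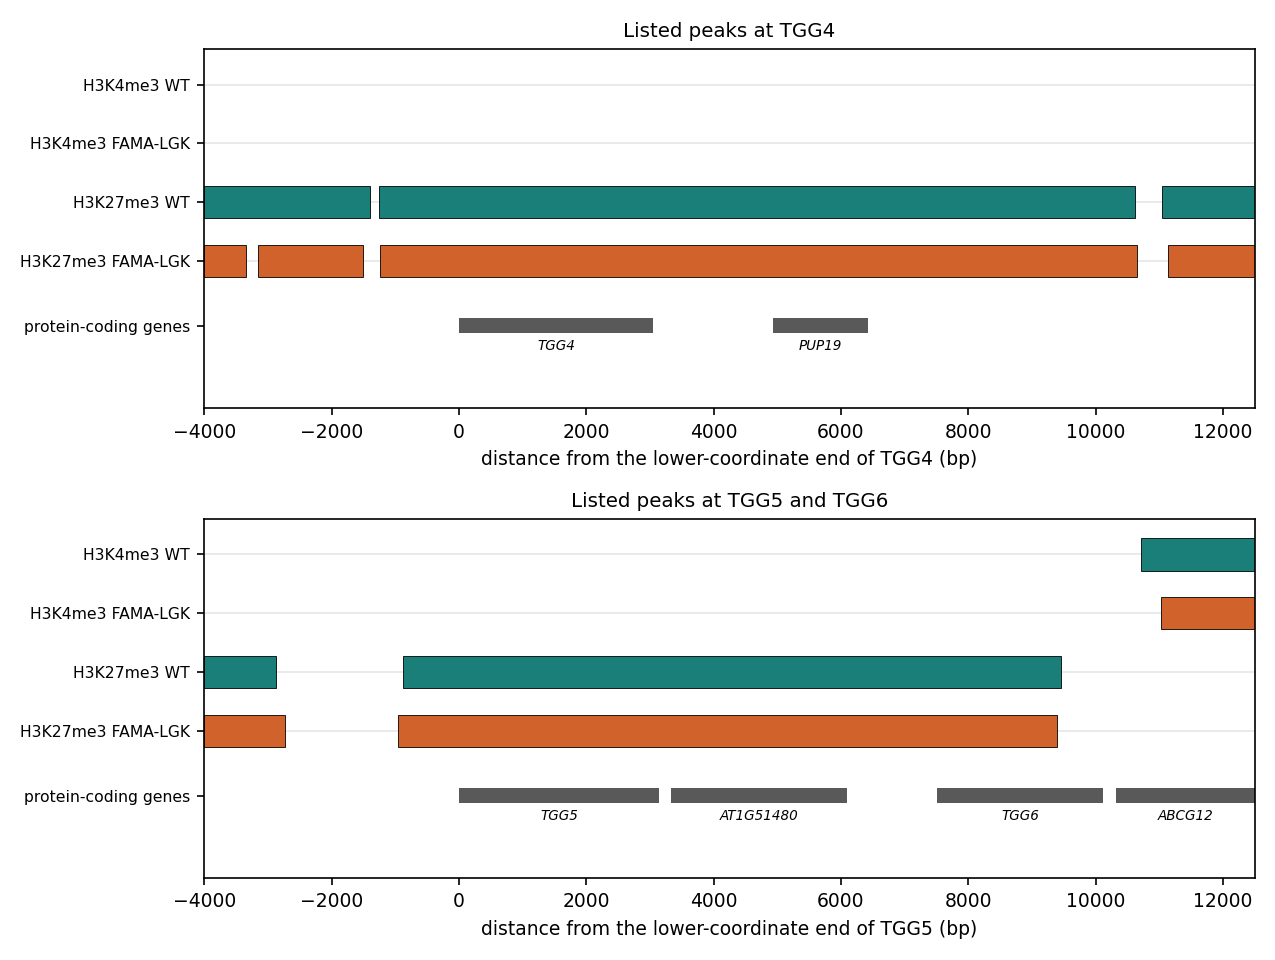
Listed peaks at TGG4 (upper) and at TGG5 and TGG6 (lower), with the distance in bp from the lower-coordinate end of TGG4 or TGG5 on the x axis; each bar is a peak of 1 list, and grey bars are protein-coding genes. An H3K27me3 peak of 11870 (WT) and 11895 bp (FAMA-LGK) spans TGG4, and one of 10344 and 10349 bp spans TGG5 and reaches into TGG6, with nearly the same borders in both genotypes.

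PEN2 (AT2G44490, chromosome 2) encodes an atypical myrosinase that cleaves indole glucosinolates in the defence of leaf cells against invading microbes. It was the only one of the 8 genes with H3K4me3 and no H3K27me3 in both genotypes. Its peak was chr2:18364614-18367329 in WT, 2716 bp wide with a fold of 5.52, and chr2:18364581-18367538 in FAMA-LGK, 2958 bp wide with a fold of 5.73. The FAMA-LGK peak contained the WT peak and reached 33 bp further on the lower side and 209 bp on the upper. H3K4me3 covered 84.1% (WT) and 90.7% (FAMA-LGK) of the gene body. Both peaks were wide for their lists, at ranks 315 and 202. An H3K4me3 covered length longer by 242 bp or more was found at 8.72% of all genes. The nearest H3K27me3 peaks lay 2163 bp (WT) and 2264 bp (FAMA-LGK) from the gene.

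NSP1 (AT3G16400, chromosome 3) encodes a nitrile-specifier protein, which turns the myrosinase product into a simple nitrile. In WT it had 1 H3K4me3 peak, chr3:5566183-5567714, 1532 bp wide with a fold of 3.22, and no H3K27me3 within 1726 bp. In FAMA-LGK no H3K4me3 peak was listed within 4957 bp, and H3K27me3 was listed in 2 peaks. The smaller was chr3:5566261-5566718, 458 bp wide with a fold of 1.73, and the larger chr3:5566944-5567796, 853 bp wide with a fold of 2.71. The smaller lay wholly, and the larger by 90.4%, within the position of the WT H3K4me3 peak. The 3 peaks were at the 17.2 (H3K4me3), 3.93 and 38.4 (H3K27me3) percentiles of their lists by −log10 q. The smaller H3K27me3 peak was one of the weakest of its list, at rank 301 from the lowest among 7652. None of the 3 was among the 50% strongest peaks of its list by −log10 q, and with those alone NSP1 was called for neither mark in either genotype.

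The genes beside NSP1 in its tandem array, NSP3 (AT3G16390) and NSP4 (AT3G16410), which encode related nitrile specifiers, carried H3K27me3 in both genotypes. The H3K27me3 covered length of NSP3 was 2418 bp (WT) and 2472 bp (FAMA-LGK). Those of NSP4 were 2869 and 2941 bp. NSP3 also had an H3K4me3 peak in WT, chr3:5563440-5564381 with a fold of 2.61, and none in FAMA-LGK, whereas NSP4 had none in either. NSP1 and NSP3 were thus both listed with H3K4me3 in WT and without it in FAMA-LGK, and only NSP1 of the array's 3 genes differed in its H3K27me3 call.

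ESP (AT1G54040, chromosome 1) encodes the epithiospecifier protein, which directs breakdown to epithionitriles and nitriles. Its H3K27me3 peaks were chr1:20170206-20172197 in WT, 1992 bp wide with a fold of 5.38, and chr1:20170145-20172166 in FAMA-LGK, 2022 bp wide with a fold of 5.87. They covered the lower-coordinate part of the gene, 45.8% and 44.9% of its body, and were strong in their lists, at the 89.6 and 90.1 percentiles by −log10 q. ESP was the only H3K27me3-marked gene of the 8 with less than 50% of the body covered in both genotypes. The difference of 30 bp in covered length changed sign, to -31 bp, in the gene body alone or with 500 bp on each side. H3K4me3 was listed no nearer than 2024 bp (WT) and 1970 bp (FAMA-LGK).

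ESM1 (AT3G14210, chromosome 3) encodes a GDSL-lipase-like protein that favours isothiocyanates over nitriles. H3K27me3 lay at chr3:4729782-4731839 in WT, 2058 bp wide with a fold of 4.17, and at chr3:4729751-4731921 in FAMA-LGK, 2171 bp wide with a fold of 4.63. These peaks covered 84.0% and 85.6% of the gene body. H3K4me3 peaks lay just outside the window, 1044 bp (WT) and 1037 bp (FAMA-LGK) from the gene. The H3K4me3 edge in the TGG2 window lay just inside it, so the 1 kb limit decides the small H3K4me3 values of these genes. Calls are defined on the gene body alone and do not depend on that limit.

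Ordered by H3K4me3 covered length, WT had TGG1, PEN2 and NSP1 at 3771, 2716 and 1532 bp. In FAMA-LGK, PEN2 led with 2958 bp, followed by TGG1 with 1442 bp. By H3K27me3 covered length, TGG2, TGG4 and TGG5 led in both genotypes with 5027 to 5094 bp, and ESM1 and ESP followed with 1992 to 2171 bp in both. In FAMA-LGK, TGG1 came between these groups with 4732 bp, and NSP1 was below them with 1311 bp. The windows of TGG2 and TGG4 were wholly covered by H3K27me3 in both genotypes, so their lengths here are set by gene length. With no replicate spread, neighbours in these orders that differ by little cannot be ranked.

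Set beside all 27444 genes, TGG1 had the largest excess of H3K27me3 covered length in FAMA-LGK over WT in this window. A covered length cannot exceed the window, so this rank also depends on gene length and on coverage in WT. The H3K4me3 of TGG1, shorter by 2329 bp, was passed or equalled by 12 genes including itself, 0.0437% of all. For NSP1, 71 genes, itself included, had H3K27me3 longer in FAMA-LGK by at least its 1311 bp, and 81 had H3K4me3 shorter by at least its 1532 bp. H3K4me3 was at least 500 bp shorter in FAMA-LGK at 3.67% of all genes and H3K27me3 at least 500 bp longer at 2.94%; among the 8 these were TGG1 and NSP1 in both cases. An H3K27me3 call in FAMA-LGK alone with H3K4me3 at least 500 bp shorter was found at 59 genes, 0.215% of all. At the other 6 genes, H3K27me3 differed by at most 113 bp and H3K4me3 by at most 242 bp. The median difference over the 8 was 48.5 bp for H3K27me3 and 0 bp for H3K4me3, and over all genes it was 0 bp for both.

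**Figure D4:**
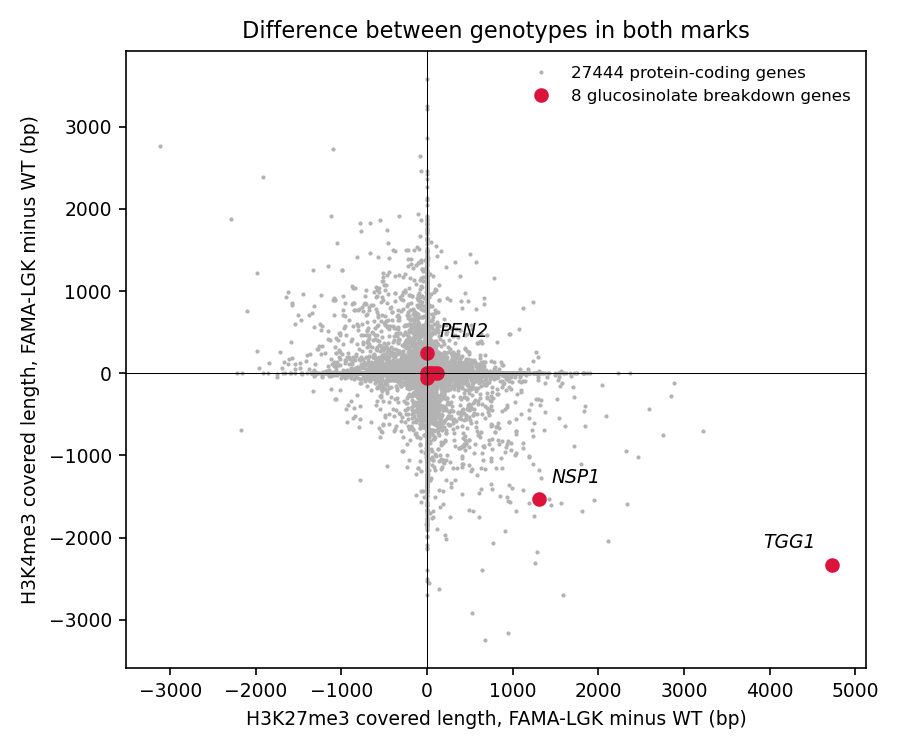
Difference in covered length between the genotypes (FAMA-LGK minus WT, in bp) for H3K27me3 on the x axis and H3K4me3 on the y axis; grey points are the 27444 protein-coding genes and red points the 8 glucosinolate breakdown genes. TGG1 (4732 and -2329 bp) and NSP1 (1311 and -1532 bp) lie in the lower right of the plot, and the other 6 lie near the origin.

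The genes most like TGG1 and NSP1 were sought by the Euclidean distance of the 4 covered lengths, over 4 lists and all protein-coding genes. The nearest to TGG1 were MSS1 (AT5G26340), FUM2 (AT5G50950), BLH2 (AT4G36870), BLH4 (AT2G23760) and AT1G23200, at distances of 2168 to 2838 bp. None of these was close: FUM2, which encodes a fumarase, had 548 bp (WT) and 2667 bp (FAMA-LGK) of H3K27me3, and the others had 1431 bp or more in WT, where TGG1 had 0. The nearest to NSP1 were the desaturase gene ADS2 (AT2G31360) at 147 bp, AT5G50940, AT3G55646, the GTPase gene RAB7A and the endoglucanase gene GH9B12, the last at 422 bp. ADS2 had H3K4me3 of 1597 bp (WT) and 0 bp (FAMA-LGK), and H3K27me3 of 0 and 1443 bp.

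The rest of the glucosinolate pathway was described by 6 lists with 70 protein-coding genes. H3K27me3 was called at 38 of the 70 (54.3%) in WT and at the same 38 in FAMA-LGK, none in 1 genotype alone, beside 24.4% of all genes called in either genotype. H3K4me3 was called at 29 (41.4%) in WT and 32 (45.7%) in FAMA-LGK, beside 62.2% of all genes. Of these calls, 2 (2.86%, beside 2.03% of all genes) were limited to WT and 5 (7.14%, beside 1.99%) to FAMA-LGK. TGG1 and NSP1 were therefore the only genes among all 78 whose H3K27me3 call differed between the genotypes at the 150 bp minimum. With 50% of the body required, IGMT2 was called in WT alone too, and with the 50% strongest peaks of each list the 2 genes were TGG1 and GSTU20, the latter called in WT alone.

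All 6 other myrosinase and related glucosidase genes (TGG3, TGG6, PYK10, BGLU18, BGLU28 and BGLU30) had H3K27me3 and no H3K4me3 call in both genotypes. This is the state of TGG2, TGG4 and TGG5 and of 18.2% of all genes. The H3K27me3 peak at TGG6 is the one that spans TGG5. At PYK10 the H3K27me3 calls rest on weak peaks, at the 2.29 (WT), 6.42 and 24.9 (FAMA-LGK) percentiles by −log10 q. With the 50% strongest peaks of each list, or with 50% of the body required, H3K27me3 was called at 5 of the 6 genes in both genotypes. BGLU18, whose product releases abscisic acid from its glucose ester, had the largest H3K27me3 excess of these genes in FAMA-LGK, with 4883 bp against 4324 bp in WT. Most of it lay outside the gene body, which held 3423 bp (FAMA-LGK) and 3346 bp (WT). Among 13 other specifiers and breakdown partners, 9 (69.2%) were called for H3K4me3 in WT and 7 (53.8%) in FAMA-LGK, on either side of the 62.2% of all genes. H3K27me3 was called at 6 (46.2%, beside 24.4%) in both. The H3K4me3 calls in WT alone were NSP3 (942 and 0 bp) and the nitrilase gene NIT3 (797 and 0 bp). They were 15.4% of the list, beside 2.03% of all genes. MBP2, which encodes a myrosinase-binding protein, had the largest H3K27me3 deficit in FAMA-LGK, with 2427 bp against 3559 bp in WT. With the 50% strongest peaks of each list by −log10 q, the MBP2 difference was 0 bp.

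Of 24 genes of aliphatic side chain and core synthesis, 14 (58.3%, beside 24.4% of all genes) were called for H3K27me3 and 6 (25.0%, beside 62.2%) for H3K4me3 in both genotypes, with no call in 1 genotype alone. The H3K27me3 calls included the side-chain elongation genes MAM1 and MAM3 and the cytochrome P450 genes CYP79F1, CYP79F2 and CYP83A1, named here after their values were seen.

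In the 13 genes of indolic and shared core synthesis, 7 (53.8%) were called for H3K4me3 in WT and 10 (76.9%) in FAMA-LGK, beside 62.2% of all genes. The 3 called in FAMA-LGK alone were 23.1% of the list, beside 1.99% of all genes. H3K27me3 was called at 6 (46.2%, beside 24.4% of all genes) in both genotypes. The genes called in FAMA-LGK alone were CYP83B1, a P450 gene of the indole core pathway (98 bp against 1841 bp in FAMA-LGK), CYP81F2, which hydroxylates the indole ring (789 and 2342 bp), and IGMT1, which methylates that product (285 and 1525 bp). Covered H3K4me3 was longer in FAMA-LGK at 10 of the 13, shorter at 1 and the same at 2, beside 41.7% longer and 33.0% shorter over all genes. CYP81F2 was called for H3K4me3 in both genotypes where 1 bp of the body sufficed. That WT call rests on 135 bp under a peak at chr5:23189768-23190556, which FAMA-LGK also had, at chr5:23189838-23190635. The other FAMA-LGK peak, chr5:23187943-23189486 with a fold of 2.30, had no counterpart in the WT list. It lay inside an H3K27me3 peak of FAMA-LGK, and CYP81F2 was called for H3K27me3 in both genotypes (1506 and 1607 bp). The methoxylated indole glucosinolate made with CYP81F2 is a known substrate of PEN2, whose own H3K4me3 is given above.

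Among 11 regulators, MYB51, an activator of indole glucosinolate synthesis, had H3K4me3 in FAMA-LGK alone (0 and 1585 bp, with a fold of 3.97). It was the only gene of the list with such a call (9.09%, beside 1.99% of all genes). MYB51 had H3K27me3 in both genotypes (3123 and 2068 bp in the window, 1988 and 1862 bp in the gene body alone). The H3K27me3 calls of this list, 6 (54.5%, beside 24.4% of all genes) in both genotypes, took in all the MYB genes of the list. The bHLH genes MYC2, MYC3 and MYC4 had H3K4me3 in both genotypes. Of 3 transporter genes, GTR2, which imports glucosinolates into the phloem, had H3K4me3 in FAMA-LGK alone (0 and 1115 bp). That is 33.3% of this short list, beside 1.99% of all genes. All 7 H3K4me3 calls in 1 genotype alone in these lists were at peaks outside the 50% strongest of their list by −log10 q, and with those strongest peaks alone the 7 genes were called in neither genotype. Other genes then had a call in 1 genotype alone: FMOGS-OX5, SUR1, UGT74B1 and SLIM1 in FAMA-LGK and GSL-OH in WT.

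**Figure D5:**
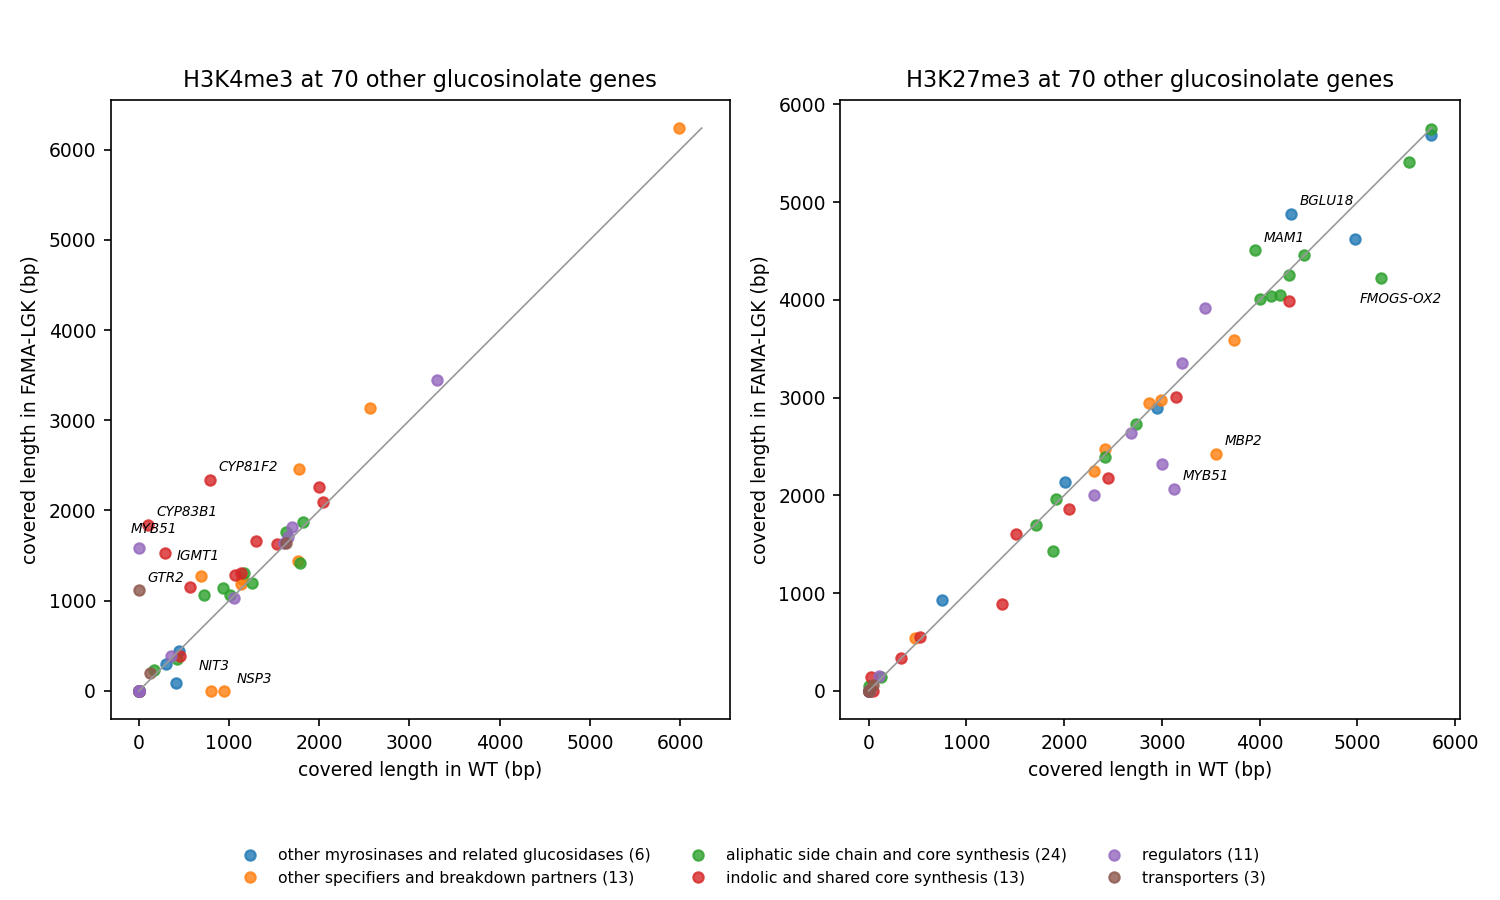
Covered length in WT (x axis) and in FAMA-LGK (y axis), in bp, of H3K4me3 (left) and H3K27me3 (right) at 70 other glucosinolate genes, coloured by list with the number of genes in brackets; the line marks equal lengths. CYP83B1, CYP81F2, IGMT1, MYB51 and GTR2 lie above the line for H3K4me3 and NSP3 and NIT3 at 0 bp in FAMA-LGK, while for H3K27me3, 64 of the 70 points lie within 500 bp of the line, BGLU18 and MAM1 further above it and MBP2, MYB51, FMOGS-OX2 and MYB122 further below.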

How the data were processed

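The data were 4 peak lists deposited by the authors, 1 for each mark in each genotype. The submitters' processing notes name the tools CASAVA 1.8.2, Bowtie2 and MACS2 and the build TAIR10, with no role for any. Each list belongs, per the labels, with a track pooled over its libraries; the handling of replicates and the peak threshold are not stated in the labels. The fold of a peak is the authors' ratio of ChIP over control. The −log10 q-value is also the authors' deposited value. The deposited score, and 4 columns with the −log10 p of each list, were not used. These values served to describe or rank peaks within 1 list and, in 3 alternatives, to filter them.

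Gene positions came from a RefSeq table of TAIR10.1, without strand. Of the WT H3K4me3 summits, 95.4 to 97.0% per chromosome lay inside its protein-coding genes, and no shift of up to 3000 bp raised that share. Printed coordinates are those of deposited peaks, counted from 1. Touching peaks were merged, and covered lengths were computed with Python 3.11.15, numpy 2.4.6 and pandas 2.3.3, after a test on simulated data. Of the 71 pathway genes listed, AOP2 is a pseudogene in the table and was left out. All 8 genes are named, and in the pathway lists each gene whose call differed and those with the largest difference in each direction for each mark. The genes, lists and rules were chosen with earlier results of these data known. The alternatives changed the body minimum, the peak threshold, the number of peaks, the window, the merging and the use of summits.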

Additional observations from a re-analysis of the deposited data

How the results depend on the processing

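The H3K27me3 call of TGG1 in FAMA-LGK alone held in all 9 alternatives run, as did both calls of TGG2, PEN2 and ESM1. Calls rest on the gene body, so the alternatives that changed only the window could not change them. With 50% of the gene body required, the genes called for H3K4me3 in FAMA-LGK went from 2 to 1 and those in WT alone from 1 to 2. With each list cut to its 50% strongest peaks by −log10 q, 1 gene was called for H3K4me3 in FAMA-LGK and 1 for H3K27me3 in FAMA-LGK alone, and the median H3K27me3 difference was 15 bp. That median was 0 bp with the gene body alone and with 500 bp on each side. The H3K27me3 difference of ESP was -31 bp in both of these windows. With a summit required inside the body, 3 genes were called for H3K27me3 in WT. In the pathway lists, the 50% strongest peaks left 14 (WT) and 17 (FAMA-LGK) H3K4me3 calls, and 50% of the body left 17 and 21. Merging peaks up to 500 bp apart, a −log10 q of at least 5, equal numbers of peaks and a minimum of 1 bp moved none of the counts and medians of the 8 genes by over 1.5 times. No paired analysis was possible because each list stands for its replicates together, and for the same reason no replicate could be left out. Depth is unknown, so an unlisted peak may be a weak one.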

Other observations

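AT5G26010 was singled out after its values were seen, and its difference was not tested. The gene lies above TGG1 and is protein-coding. It held H3K27me3 in FAMA-LGK only: the peak chr5:9085537-9086301 (TAIR10) was 765 bp wide with a fold of 1.97, weak at the 13.4 percentile of its list by −log10 q, and began 2256 bp above the TGG1 peak. No H3K4me3 peak was listed over this gene in either genotype.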
